A study of Mus musculus with 11 samples.

Results

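The 9 genes described here make and load the major histocompatibility complex (MHC) class I molecule: B2m, H2-K1, H2-D1, Tap1, Tap2, Tapbp, Psmb8, Psmb9 and Nlrc5. They were chosen by name as class I and antigen-processing genes and found in the count table by matching its Ensembl identifiers to GENCODE names. All 9 of 9 were present among the 54418 genes of the table. All of them passed the filter on low counts in every comparison.

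RNA-seq had been performed on thymocytes, as a single cell suspension of the whole thymus, from mice aged 8 to 12 weeks on a C57BL/6-WEHI background. The genotypes were wt (4 mice), Zmat3-/- (4 mice) and Puma-/-p21-/-Zmat3-/- (TKO, 3 mice). Zmat3 encodes an RNA-binding protein, Puma (gene symbol Bbc3) a pro-apoptotic BH3-only protein and p21 (Cdkn1a) an inhibitor of cyclin-dependent kinases, and all 3 genes are targets of the tumour suppressor TRP53. The knockout alleles were present in every cell of the mouse and no treatment was named for these samples, so wt mice were the controls for both mutants. Zmat3-/- mice were the comparison for the added loss of Puma and p21.

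A class I molecule is a heavy chain, bound to beta-2 microglobulin, that displays a short peptide at the cell surface to CD8+ T cells. The proteasome cuts the peptides, a transporter in the membrane of the endoplasmic reticulum brings them inside, and tapasin holds the empty molecule at the transporter until it is loaded. In the thymus these molecules select CD8+ T cells, and immature CD4+CD8+ thymocytes are known for low surface class I, which increases as they mature. In bulk RNA, fewer cells of a type and less RNA per cell cannot be told apart.

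None of the 9 genes passed the test between any 2 genotypes after adjustment over all tested genes. The targeted genes Zmat3, Bbc3 and Cdkn1a did not pass it either. Both mutants had lower mean levels than wt mice for 8 of the 9 genes, and Nlrc5 had the opposite sign. Of all tested genes, 54.3% were lower in TKO and 53.2% in Zmat3-/- than in wt mice. Wt mice 1 and 2 had the highest levels of B2m, H2-K1, H2-D1, Tap1, Tap2, Tapbp, Psmb8 and Psmb9 of all 11 mice and the lowest levels of Nlrc5. The share of all tested genes with that pattern was not counted, and the wt libraries differed from one another in many genes. Tap1, Tapbp and Nlrc5 were lower in Zmat3-/- mice 3 and 4 than in wt mice 3 and 4, while H2-D1, Psmb8 and Psmb9 were higher. An edgeR fit of these mice alone passed 28.2% of all tested genes. TKO and Zmat3-/- thymocytes were close to each other for every one of the 9 genes.

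Sequencing depth was 17669715 to 80207003 counts per mouse. Libraries of wt mice stood apart from one another: the correlation of log2 CPM (a gene's counts relative to the scaled library total) over tested genes went down to 0.892 between a pair of wt mice, and was 0.972 or more for every pair of mice sharing a mutant genotype. Xist, the RNA made from the inactive X chromosome, divided the mice into a class with 505 to 1485 CPM (mice 1 and 2 of the wt and of the Zmat3-/- group, and mouse 1 of the TKO group) and a class with 0.806 to 2.54 CPM (the others), called Xist-high and Xist-low below. Sex was not given in the labels. Transcripts of ribosomal proteins made up 7.99% and 6.08% of all counts in wt mice 1 and 2, 2.65% and 2.57% in wt mice 3 and 4, and 3.62% to 4.31% in the 7 mutant mice. Mitochondrial transcripts made up 5.38%, 6.31%, 4.45% and 4.25% in wt mice 1 to 4, 10.4%, 6.54%, 14.6% and 12.0% in Zmat3-/- mice and 8.44%, 9.29% and 3.86% in TKO mice, so that every Zmat3-/- mouse was above every wt mouse. The part of the mitochondrial share in the class I levels was not tested. Zmat3 itself was at 18.9 ± 9.12 CPM in wt, 6.07 ± 0.691 in Zmat3-/- and 8.03 ± 0.238 in TKO mice (mean ± SD), with no overlap of either mutant with wt. Cdkn1a was at 3.13 CPM in TKO mice against 6.57 in wt and 6.54 in Zmat3-/- mice, and Bbc3 at 13.7 against 18.6 and 17.2. The edgeR adjusted p of Zmat3 was 0.371 in TKO and 0.0789 in Zmat3-/- against wt mice. In TKO against wt mice it was 0.444 for Cdkn1a and 0.400 for Bbc3, and against Zmat3-/- mice 0.384 and 0.982. Even disrupted genes thus did not pass, so a gene that did not pass cannot be read as unchanged.

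B2m lies on chromosome 2, Nlrc5 on chromosome 8 and the other 7 genes in the MHC on chromosome 17. In order on chromosome 17 (GRCm38, GENCODE M21) these are Tapbp at chr17:33915899-33929292, H2-K1 at chr17:33996017-34000347, Psmb9 at chr17:34181987-34187764, Tap1 at chr17:34187553-34197225, Psmb8 at chr17:34197721-34201454, Tap2 at chr17:34203527-34216321 and H2-D1 at chr17:35262730-35267499. Psmb9 and Tap1 are transcribed away from each other, and their annotated ends overlap by 212 bases. The library kit did not keep the strand, so reads in the overlap cannot be assigned to one of the pair. H2-K1 and H2-D1 are close paralogs: 22.8% of the 31-base words of H2-K1 transcripts and 26.7% of those of H2-D1 also occur in transcripts of other genes, each gene being the other's main partner. The division of reads between these 2 genes and the H2-Q genes is therefore uncertain. The share was 4.62% for Tapbp, at most 1.34% for Tap1, Tap2 and Psmb8, and 0% for B2m, Psmb9 and Nlrc5.

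The region just before the start of 4 of the genes is shown because these genes are known to share regulators. Sequences are from RefSeq (GRCm38.p6), 250 bases before the start annotated there, 5′ to 3′ on the gene's own strand. RefSeq starts can differ from the GENCODE spans above: the windows of H2-D1, Tapbp, Psmb8 and Psmb9 lie inside those spans. H2-K1 had 2 windows, of which the first listed was used. Capitals mark matches on either strand to CCAAT, to GAAANNGAA or GAANNGAAA, both forms of the core of the interferon-stimulated response element, to GGGANTTCC, a narrow form of the NF-kB site, or to the NF-kB consensus. GAANNGAAA and the NF-kB consensus were added after the windows had been seen. The pair of interferon forms, and the pair of NF-kB forms, can overlap each other.
B2m (chr2:122147437-122147686, + strand): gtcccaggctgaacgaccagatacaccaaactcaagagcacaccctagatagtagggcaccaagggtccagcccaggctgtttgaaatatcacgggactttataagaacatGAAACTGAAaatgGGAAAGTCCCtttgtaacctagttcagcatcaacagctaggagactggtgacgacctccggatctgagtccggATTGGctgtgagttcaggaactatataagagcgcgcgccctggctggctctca
H2-K1 (chr17:34000348-34000597, - strand): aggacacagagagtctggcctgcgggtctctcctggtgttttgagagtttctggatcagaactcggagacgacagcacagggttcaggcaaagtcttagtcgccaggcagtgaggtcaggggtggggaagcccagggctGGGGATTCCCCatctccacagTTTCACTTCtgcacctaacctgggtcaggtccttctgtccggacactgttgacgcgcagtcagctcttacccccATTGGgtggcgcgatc
H2-D1 (chr17:35262844-35263093, + strand): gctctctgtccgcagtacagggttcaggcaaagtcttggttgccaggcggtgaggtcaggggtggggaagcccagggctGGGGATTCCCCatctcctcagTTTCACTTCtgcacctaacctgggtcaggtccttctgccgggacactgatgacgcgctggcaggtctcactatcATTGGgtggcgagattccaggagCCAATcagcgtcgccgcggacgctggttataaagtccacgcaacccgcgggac
Tap1 (chr17:34187306-34187555, + strand): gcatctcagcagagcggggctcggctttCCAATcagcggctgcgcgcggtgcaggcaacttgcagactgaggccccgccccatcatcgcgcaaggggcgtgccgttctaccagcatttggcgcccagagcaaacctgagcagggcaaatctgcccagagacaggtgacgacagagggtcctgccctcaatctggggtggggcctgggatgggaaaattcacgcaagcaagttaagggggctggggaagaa

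RefSeq windows were found for 7 of the 9 genes, and Tap2 and Nlrc5 had no entry. CCAAT or its complement was present in 6 of 7 windows and in 34.5% of all 27025 promoters of the same length. GAAANNGAA was present in 1 of 7, the B2m window, 139 to 131 bases before the start, and in 7.16% of all promoters. GGGANTTCC was in none of the 7 and in 1.42% of all promoters. The wider NF-kB consensus matched in 3 of 7 windows (126 to 117 bases before the start in B2m, 111 to 101 in H2-K1 and 171 to 161 in H2-D1) and in 7.01% of all promoters. GAANNGAAA was present in 2 of 7, H2-K1 (90 to 82 bases before the start) and H2-D1 (150 to 142), and in 6.34% of all promoters. The windows of H2-K1 and H2-D1 shared an identical run of 47 bases, which began 141 bases before the H2-K1 start and 201 bases before the H2-D1 start. The Tap1 and Psmb9 windows shared 225 of their 250 bases, read on opposite strands. Their CCAAT match is the same site, 222 to 218 bases before the Tap1 start and 8 to 4 before the Psmb9 start. The count of 6 therefore holds that site for both genes. These matches describe the letters in the windows and no binding was measured.

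Per kilobase of exon, the order of the levels was the same in each genotype: B2m, H2-D1, H2-K1, Psmb8, Tap2, Tapbp, Tap1, Psmb9 and Nlrc5. In Zmat3-/- mice the means per kilobase were 533 ± 45.9 CPM for B2m, 141 ± 11.6 for H2-D1, 116 ± 10.2 for H2-K1, 72.3 ± 3.78 for Psmb8, 63.9 ± 3.52 for Tap2, 31.5 ± 2.70 for Tapbp, 24.1 ± 1.68 for Tap1, 17.1 ± 2.00 for Psmb9 and 7.47 ± 0.909 for Nlrc5 (SD, n = 4). No neighbours in that order overlapped in Zmat3-/- mice. In wt mice 5 pairs of neighbours overlapped (H2-D1 and H2-K1, H2-K1 and Psmb8, Psmb8 and Tap2, Tapbp and Tap1, Tap1 and Psmb9), and in TKO mice 2 did (H2-D1 and H2-K1, Psmb8 and Tap2).

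**Figure D1:**
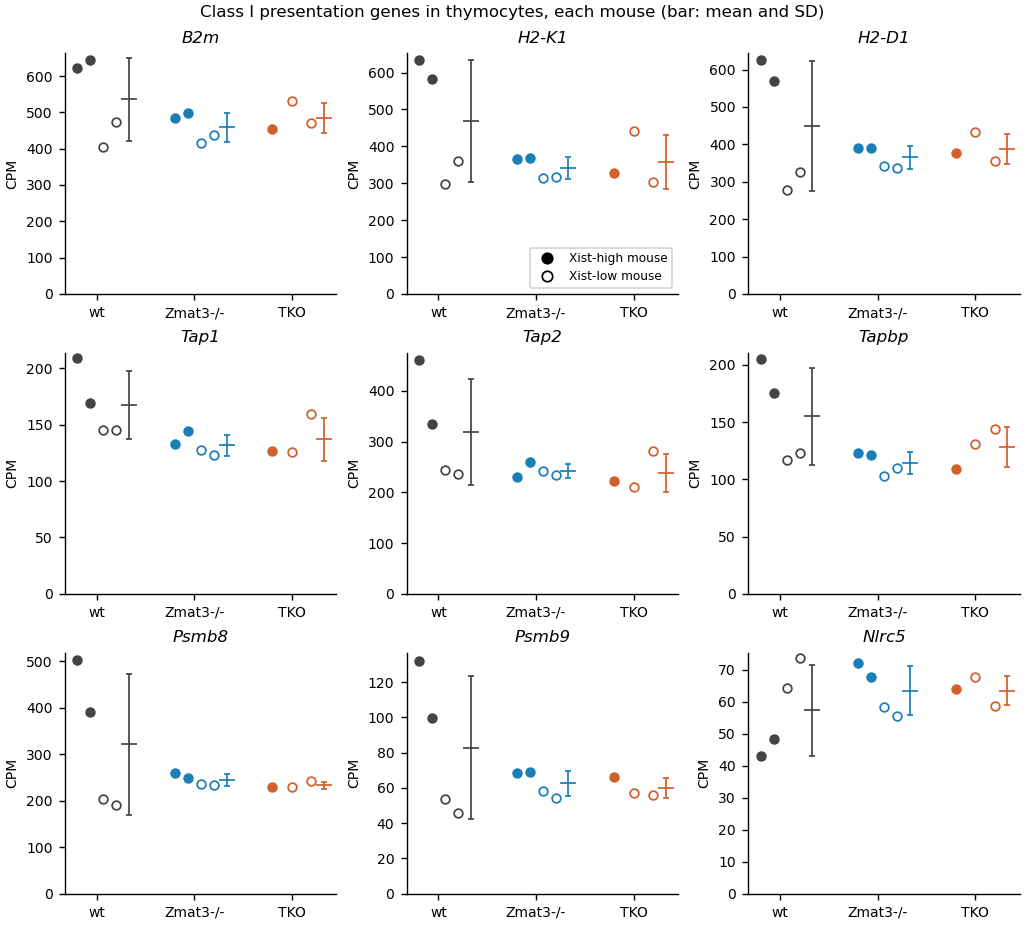
Level of each of the 9 genes in CPM, with TMM scaling, in every mouse, by genotype, with the mean and SD beside the points. Filled points are Xist-high mice and open points Xist-low mice. For every gene but Nlrc5 the 2 filled wt points are the highest of all 11 mice. The share of all tested genes with that pattern was not counted.

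The class I molecule itself came first. B2m, which encodes the light chain beta-2 microglobulin, was at 621, 643, 405 and 473 CPM in wt mice 1 to 4. It was at 485, 498, 415 and 437 CPM in Zmat3-/- mice and at 453, 532 and 469.7 CPM in TKO mice. Levels in wt mice 3 and 4 lay inside or below the range of the mutants, so the groups overlapped. The log2 fold change was -0.18 ± 0.208 (SE) in TKO against wt mice and -0.22 ± 0.160 in Zmat3-/- against wt mice, with adjusted p = 0.750 and 0.539 in edgeR's quasi-likelihood test.

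H2-K1, the heavy chain of the classical molecule H2-K, had the same pattern with a wider spread. Its levels were 635, 583, 297 and 359 CPM in wt mice, 366, 369, 314 and 317 CPM in Zmat3-/- mice and 327, 441 and 304 CPM in TKO mice. The lowest of the 11 values belonged to wt mouse 3 and the highest to wt mouse 1. Against wt mice the log2 fold change was -0.41 ± 0.313 in TKO (edgeR adjusted p = 0.643) and -0.44 ± 0.234 in Zmat3-/- mice (edgeR adjusted p = 0.392).

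H2-D1, the heavy chain of H2-D, was at 627, 569, 278 and 327 CPM in wt mice. It was at 390.3, 391, 341 and 337 CPM in Zmat3-/- mice and at 376, 433 and 355 CPM in TKO mice, so every mutant value lay between the 2 higher and the 2 lower wt values. The log2 fold change was -0.24 ± 0.310 in TKO and -0.29 ± 0.251 in Zmat3-/- mice against wt (edgeR adjusted p = 0.767 and 0.593). H2-K1 and H2-D1 together made up 43.3% to 54.2% of the counts of 16 class I heavy chain genes, a sum less open to reads shared among them. That sum was 2368, 2123, 1328 and 1507 CPM in wt, 1498, 1557, 1412 and 1424 CPM in Zmat3-/- and 1474, 1657 and 1517 CPM in TKO mice. Its difference from wt on the log2 scale was -0.20 in TKO (two-sided exact permutation p = 0.400) and -0.28 in Zmat3-/- mice (exact permutation p = 0.343). The smallest p that these designs allow is 0.0286.

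Among the genes that bring in and load peptides, Tap1, one half-transporter of the TAP pair, was the 1 gene of the 9 whose ranges did not overlap in a comparison. It was at 209, 169, 145 and 145 CPM in wt mice, 132, 144, 127 and 123 CPM in Zmat3-/- mice and 127, 126 and 159 CPM in TKO mice. All 4 Zmat3-/- values were below all 4 wt values, though the highest Zmat3-/- and lowest wt values were 144 and 145 CPM. The log2 fold change in Zmat3-/- against wt mice was -0.34 ± 0.130, with a 95% interval of -0.63 to -0.04, an exact permutation p of 0.0286 and an edgeR adjusted p of 0.257. Ranges that did not overlap were found for 14.1% of all tested genes in that comparison, for 12.1% in TKO against wt mice and for 4.92% in TKO against Zmat3-/- mice.

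Tap2, the other half-transporter, was at 462, 334, 244 and 235 CPM in wt, 229.6, 260.0, 242 and 235 CPM in Zmat3-/- and 221, 211 and 282 CPM in TKO mice. The mutant levels surrounded those of wt mice 3 and 4. Tapbp, which encodes tapasin, was at 205, 175, 117 and 123 CPM in wt, 123, 121, 103 and 109 CPM in Zmat3-/- and 109, 131 and 143.5 CPM in TKO mice. For Tapbp the log2 fold change was -0.43 ± 0.181 in Zmat3-/- against wt mice (95% interval -0.84 to -0.02, edgeR adjusted p = 0.290) and -0.32 ± 0.219 in TKO against wt mice (edgeR adjusted p = 0.622). For Tap2 these were -0.39 ± 0.205 and -0.47 ± 0.247 (edgeR adjusted p = 0.388 and 0.547).

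The immunoproteasome subunits had the largest spread among wt mice. Psmb8, which encodes the catalytic subunit LMP7, was at 501, 390.0, 204 and 189.5 CPM in wt mice. It stayed within 233 to 260.4 CPM in Zmat3-/- and within 229 to 241 CPM in TKO mice, so all 7 mutant mice lay between the higher and the lower pair of wt mice. Psmb9, which encodes LMP2, was at 132, 99.7, 53.4 and 45.8 CPM in wt, 68.3, 69.0, 58.3 and 54.3 CPM in Zmat3-/- and 66.4, 57.2 and 55.8 CPM in TKO mice, with the same order. The SD of log2 CPM among wt mice was 0.69 for Psmb8 and 0.73 for Psmb9, and 17.5% and 15.7% of all tested genes had a larger one. The log2 fold change against wt was -0.50 ± 0.345 for Psmb8 and -0.50 ± 0.363 for Psmb9 in TKO mice (edgeR adjusted p = 0.628 and 0.639), and -0.38 ± 0.293 and -0.39 ± 0.309 in Zmat3-/- mice (edgeR adjusted p = 0.552 and 0.558).

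Nlrc5, the transactivator that acts at class I promoters, went the other way. Its levels were 42.8, 48.3, 64.1 and 73.7 CPM in wt, 72.0, 67.8, 58.4 and 55.6 CPM in Zmat3-/- and 63.9, 67.7 and 58.7 CPM in TKO mice. The 2 wt mice with the most class I RNA had the least Nlrc5, and wt mouse 4 had the most. Against wt it differed by a log2 fold change of 0.11 ± 0.223 in TKO and 0.15 ± 0.190 in Zmat3-/- mice (edgeR adjusted p = 0.847 and 0.708).

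**Figure D2:**
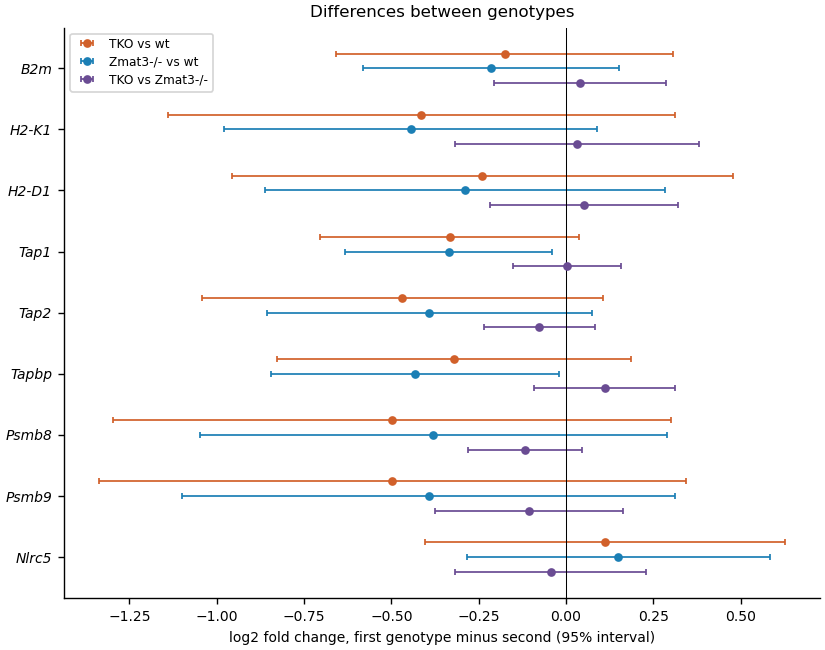
Log2 fold change of each gene with its 95% interval from edgeR, for TKO against wt, Zmat3-/- against wt and TKO against Zmat3-/- mice. The intervals for TKO against Zmat3-/- mice all include 0 and stay within -0.37 to 0.38, while those against wt reach -1.34.

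As a group, 0 of 9 genes passed an adjusted p of 0.05 in edgeR in TKO against wt mice, where 0.294% of 13275 tested genes passed. In Zmat3-/- against wt mice 0 of 9 passed, where 0.764% of 13480 genes passed, and in TKO against Zmat3-/- mice 0 of 9 passed, where 0.221% of 13132 genes passed. In a fit with the replicate number as a block, Zmat3-/- against wt mice gave 12 passing genes in place of 103, and again 0 of 9. DESeq2 called 0 of 9 in each comparison, where it passed 2.88% of genes in TKO against wt, 8.03% in Zmat3-/- against wt and 0.548% in TKO against Zmat3-/- mice. At an unadjusted p under 0.05 in edgeR there were 0 of 9, against 10.3% of all genes in TKO against wt mice, 2 of 9 (Tap1 and Tapbp) against 16.1% in Zmat3-/- against wt mice, and 0 of 9 against 4.5% in TKO against Zmat3-/- mice. The median log2 fold change of the 9 was -0.33 in TKO and -0.38 in Zmat3-/- against wt mice, beside -0.04 and -0.03 over all tested genes. The 2 mutant comparisons share the 4 wt mice.

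The size of the differences from wt depended on wt mouse 1. Without it the log2 fold change moved by over 1.5 times for 9 of 9 genes in both comparisons. In TKO against wt mice it was then -0.04 for H2-D1, -0.10 for B2m, -0.16 for Tapbp, -0.18 for Psmb9, -0.20 for Psmb8, -0.21 for Tap1, -0.23 for H2-K1, -0.24 for Tap2 and -0.0073 for Nlrc5. In Zmat3-/- against wt mice it was -0.08 for Psmb9, -0.09 for Psmb8 and H2-D1, -0.14 for B2m, -0.17 for Tap2, -0.22 for Tap1, -0.27 for Tapbp and H2-K1, and 0.03 for Nlrc5. With the Xist level as a covariate 5 genes moved that far in TKO against wt mice, to -0.07 for H2-D1, -0.11 for B2m, -0.27 for Psmb9 and H2-K1 and -0.28 for Psmb8.

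The direct comparison of the mutants was narrower. In TKO against Zmat3-/- mice the log2 fold changes ran from -0.12 for Psmb8 to 0.11 for Tapbp, with a median of 0.0035, and adjusted p of 0.982 to 0.999 in edgeR. The 95% intervals of the 9 genes together spanned -0.37 to 0.38. Each of the 9 intervals included 0.

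Within genotypes, the Xist classes showed where the wt spread lay. That spread, as the SD of log2 CPM among wt mice, had a median of 0.45 over the 9 genes and 0.36 over all tested genes. The mean log2 CPM of wt mice 1 and 2 minus that of wt mice 3 and 4 was 0.37 for Tap1, 0.53 for B2m, 0.66 for Tapbp, 0.71 for Tap2, 0.90 for H2-K1, 0.99 for H2-D1, 1.17 for Psmb8 and 1.21 for Psmb9, and -0.60 for Nlrc5. The median of the 9 was 0.71, beside 0.06 over all tested genes, among which higher and lower genes cancel. The same difference in Zmat3-/- mice had a median of 0.21 for the 9 genes and 0.00096 for all genes, and ran from 0.04 for Tap2 to 0.29 for Nlrc5. In TKO mice, mouse 1 minus mice 2 and 3 had a median of -0.14 for the 9 genes and -0.059 for all genes, and Psmb9 (0.23) and Nlrc5 (0.02) were positive.

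The comparison of Zmat3-/- with wt mice was repeated within each class, with 2 mice of each genotype. Among Xist-high mice all 9 genes passed in edgeR, 8 of them lower in Zmat3-/- mice by log2 fold changes of -0.34 (B2m) to -0.78 (Psmb8) and Nlrc5 higher by 0.65, where 42.1% of all tested genes passed. Among Xist-low mice 4 of 9 passed, where 28.2% of all genes passed. Tap1 (-0.23, adjusted p = 0.00568), Tapbp (-0.19, adjusted p = 0.0300) and Nlrc5 (-0.29, adjusted p = 0.0302) were lower in Zmat3-/- mice there and Psmb8 (0.24, adjusted p = 0.00596) was higher, all by edgeR. Tap1 and Tapbp thus passed in both classes with the same sign, as did 5.3% of the genes tested in both, and Psmb8 and Nlrc5 passed in both with opposite signs, as did 9.1%. The mitochondrial share also differed within the classes, at 10.4% and 6.54% in Zmat3-/- against 5.38% and 6.31% in wt mice of the Xist-high class, and at 14.6% and 12.0% against 4.45% and 4.25% in the Xist-low class.

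Whether the fold change differed between the classes was tested as an interaction in one edgeR fit of these 8 mice, chosen after the values had been seen. It passed for 7 of the 9 genes, beside 44.2% of all tested genes. For Psmb8 the log2 fold change was 1.02 ± 0.156 lower in Xist-high than in Xist-low mice, and for Nlrc5 it was 0.93 ± 0.136 higher (edgeR adjusted p = 0.000915 and 0.000776). For Tap1 the difference was -0.20 ± 0.139 and for B2m -0.28 ± 0.128 (edgeR adjusted p = 0.267 and 0.102). With the share of ribosomal protein counts also highest in wt mice 1 and 2 and lowest in wt mice 3 and 4, the parts of Xist class and of library make-up in these differences cannot be told apart among 4 wt mice.

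**Figure D3:**
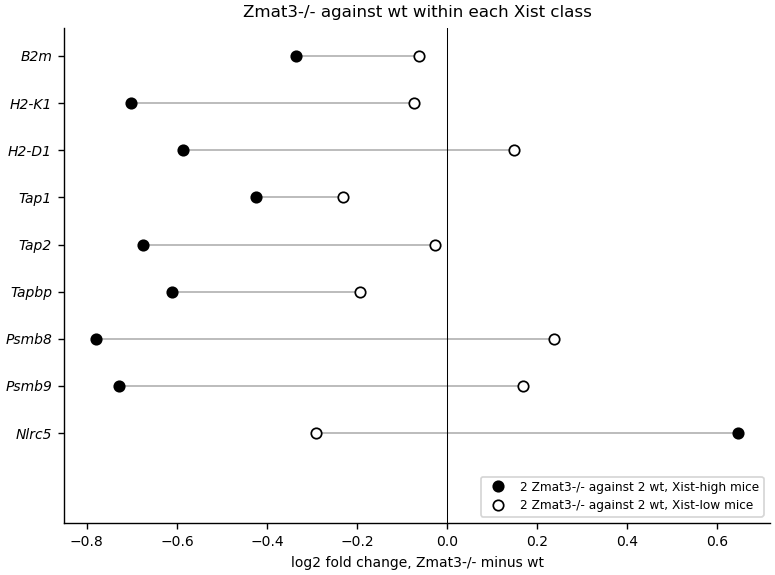
Log2 fold change of each gene in Zmat3-/- against wt mice, computed within the Xist-high mice (filled, 2 against 2) and within the Xist-low mice (open, 2 against 2), joined by a line. The filled points lie from -0.78 to 0.65 and the open points from -0.29 to 0.24.

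In TKO mice the Xist-high class held 1 animal, so its values are given with no test. TKO mouse 1 lay below wt mice 1 and 2 for 8 of 9 genes, with log2 fold changes from -0.46 (B2m) to -0.94 (Psmb8), and above them for Nlrc5 (0.51). An edgeR fit that takes this mouse to vary like the wt pair passed 20.2% of all genes, and no call is read from it. TKO mice 2 and 3 against wt mice 3 and 4 gave 0 of 9, where 3.02% of all genes passed, and 6 of the 8 genes that were lower over all mice had a positive log2 fold change, from 0.11 to 0.32. Adding 1 surrogate variable to the fit of Zmat3-/- against wt mice passed 5 of 9 genes (H2-K1, Tap1, Tap2, Tapbp and Psmb8, at -0.15 to -0.33), where 37.8% of all genes passed.

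The 8 genes other than Nlrc5 varied together over the 11 mice, with a correlation of each gene's log2 CPM with the mean of the other 8 genes of 0.82 (Tap1) to 0.94 (Psmb8). Nlrc5 had a correlation of -0.78. Without wt mice 1 and 2 these were 0.84 for B2m, 0.71 for H2-D1, 0.51 for H2-K1 and Tapbp, 0.44 for Psmb8, 0.36 for Psmb9, 0.34 for Nlrc5, 0.05 for Tap1 and -0.08 for Tap2, so for most of the genes the relation rested on those 2 libraries. The 5 other genes with the profile most like the mean of the 9 were Tnfrsf4 (r = 0.990), Polr2l (0.987), Cox6a1 (0.987), Gadd45gip1 (0.987) and Usf1 (0.986), over the same 11 mice. Tnfrsf4, a receptor of activated T cells, was at 21.9 and 15.4 CPM in wt mice 1 and 2 and between 6.02 and 8.65 CPM in each of the other 9 mice.

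The rest of the pathway was taken from lists of 64 further genes, of which 63 were tested. In edgeR 0 of 63 passed in any of the 3 comparisons. DESeq2 called 4 of 63 in Zmat3-/- against wt mice (Hspa5, H2-Q7, H2-K2 and Cd8a), beside 8.03% of all tested genes, 1 in TKO against wt mice (Hspa5), beside 2.88%, and 0 in TKO against Zmat3-/- mice, beside 0.548%. At an unadjusted p under 0.05 in edgeR there were 3 of 63 in TKO against wt mice, beside 10.3% of all genes, 6 in Zmat3-/- against wt mice, beside 16.1%, and 1 in TKO against Zmat3-/- mice, beside 4.5%. None of these shares exceeded that of all genes. The median log2 fold change of the 63 was -0.14, -0.12 and 0.02 in TKO against wt, Zmat3-/- against wt and TKO against Zmat3-/- mice, beside -0.04, -0.03 and -0.0082 over all tested genes.

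The extremes of each list in the comparisons with wt mice were as follows, with TKO first and Zmat3-/- second. Among 10 chaperones and loading factors the log2 fold change went from -0.32 (Prkcsh) to 0.63 (Hspa5) and from -0.31 (Pdia3) to 0.52 (Hspa5). For the immunosubunit Psmb10 and the proteasome activator genes Psme1 and Psme2 it went from -0.65 (Psmb10) to -0.37 (Psme1) and from -0.57 (Psmb10) to -0.30 (Psme2). For the constitutive catalytic subunits it went from -0.49 (Psmb5) to -0.33 (Psmb7) and from -0.45 (Psmb5) to -0.22 (Psmb7). Among 11 proteasome core subunits the limits were -0.40 (Psmb2) and -0.10 (Psma3), then -0.37 (Psmb2) and 0.02 (Psma4). Among 17 class Ib and class I-like genes they were -0.55 (H2-K2) and 0.42 (H2-T3), then -0.64 (H2-Q7) and 0.56 (Hfe). Among 17 regulators, which include the interferon-gamma receptor and its kinases, they were -0.32 (Ifngr2) and 0.50 (Jak2), then -0.34 (Ifngr2) and 0.47 (Jak2). For Cd8a and Cd8b1, the chains of the class I co-receptor on T cells, they were -0.21 (Cd8a) and -0.20 (Cd8b1), then -0.29 (Cd8b1) and -0.23 (Cd8a).

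Other proteasome genes had the wt pattern of Psmb8 and Psmb9. The 11 other core subunits summed to 2106, 1685, 889.6 and 868 CPM in wt mice and to 1143 to 1285 CPM in the 7 mutant mice. The constitutive catalytic subunits Psmb5, Psmb6 and Psmb7, which the immunosubunits replace, summed to 551, 409, 202 and 203 CPM in wt and 243 to 289 CPM in mutant mice. The ratio of Psmb8 to Psmb5 per kilobase was 0.884 ± 0.0761 in wt, 0.912 ± 0.0678 in Zmat3-/- and 0.859 ± 0.0554 in TKO mice (SD, n = 4, 4 and 3). The ratio of Psmb9 to Psmb6 was 0.374 ± 0.0357, 0.365 ± 0.0207 and 0.356 ± 0.0324. That of Psmb10, the third immunosubunit, to Psmb7 was 1.17 ± 0.231, 0.969 ± 0.0704 and 0.991 ± 0.148. Over the 9 comparisons of ratios the exact permutation p was 0.171 to 0.800, and 0.800 for each after Benjamini-Hochberg adjustment.

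H2-Q7 and Hspa5 did not follow wt mice 1 and 2. H2-Q7, a class Ib heavy chain, was at 89.8, 104, 87.2 and 116 CPM in wt mice and at 61.4, 71.5, 62.1 and 57.7 CPM in Zmat3-/- mice, with no overlap (log2 fold change -0.64 ± 0.122, edgeR adjusted p = 0.0612, DESeq2 adjusted p = 0.000127). In TKO mice it was at 82.2, 83.4 and 76.4 CPM, between the other genotypes and overlapping neither. H2-K2, a class I heavy chain gene next to H2-K1, ranged over 16.2 to 25.6 CPM in wt mice, against 13.1 to 15.5 CPM in Zmat3-/- mice and 14.9 to 16.1 CPM in TKO mice (DESeq2 adjusted p = 0.00780 in Zmat3-/- against wt mice). Both genes share sequence with other class I genes and their counts carry that uncertainty.

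Hspa5, the chaperone BiP of the endoplasmic reticulum, was at 159, 205, 165 and 171 CPM in wt mice. It was at 249, 262, 245 and 244 CPM in Zmat3-/- and at 283, 269 and 281 CPM in TKO mice, higher in all 7 mutant mice than in any wt mouse (log2 fold change 0.52 ± 0.103 in Zmat3-/- and 0.63 ± 0.138 in TKO against wt, edgeR adjusted p = 0.0684 and 0.190). The adjusted p of Hspa5 in DESeq2 was 3.07e-06 and 0.000116. Of the regulators, Jak2, a kinase of the interferon-gamma receptor, ranged over 82.0 to 130.0 CPM in wt mice, against 142 to 154 CPM in Zmat3-/- mice and 135 to 176 CPM in TKO mice, and did not pass in either comparison (edgeR adjusted p = 0.187 and 0.427). Irf1, which acts at the interferon-stimulated response element, was at 116, 102, 64.4 and 66.6 CPM in wt and 82.6 to 107 CPM in mutant mice. Cd8a, the receptor subunit that binds class I on the T cell, ranged over 1855 to 2027 CPM in wt mice, against 1492 to 1708 CPM in Zmat3-/- mice and 1520 to 2011 CPM in TKO mice, and passed in DESeq2 alone (Zmat3-/- against wt, adjusted p = 0.0283).

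Markers of cell types were measured beside these genes. Thymocyte markers such as Cd3e, Cd4 and Lck were abundant in every mouse, their list of 9 summing to between 8836 and 12053 CPM. Within that list Cd3d (648, 513, 289 and 276 CPM in wt mice), Cd3g (724, 665, 425 and 416 CPM) and Lck (2038, 1930, 1332 and 1297 CPM) were highest in wt mice 1 and 2, while Bcl11b (513, 569, 856 and 824 CPM) and Tcf7 (1956, 2230.4, 2516 and 2396 CPM) were lowest there. Markers of B cells, which carry much class I, summed to 1685, 1661, 789.9 and 889 CPM in wt mice, against 1079 to 1220 CPM in Zmat3-/- mice and 842 to 1427 CPM in TKO mice (10 genes, none at 0). Of that sum, Cd74, the class II genes H2-Aa, H2-Ab1 and H2-Eb1, and Ly6d made up 1601, 1552, 739 and 828 CPM in wt mice. Cd79a and Cd79b, the signalling chains of the B cell receptor, were at 22.9, 27.9, 8.79 and 11.8 CPM and at 37.4, 40.9, 19.5 and 19.1 CPM in wt mice. Of the same list Pax5, at 4.31, 8.44, 6.64 and 7.35 CPM in wt mice, and Ms4a1, at 7.84, 12.8, 7.18 and 9.77 CPM, did not have their highest values in both wt mice 1 and 2. The 20 interferon response genes summed to 1016, 926, 615 and 695 CPM in wt, 675 to 793 CPM in Zmat3-/- mice, 730.3 to 839 CPM in TKO mice. Markers of double-positive thymocytes had the opposite order in wt mice, at 5168, 6023, 9204 and 8525 CPM, against 7195 to 8878 CPM in Zmat3-/- and 7848 to 10341 CPM in TKO mice. Most of that difference was in Rag1, a recombinase gene, at 1603, 2243, 5270 and 4939 CPM in wt mice. The other 7 genes of the list summed to 3564, 3779, 3934 and 3586 CPM. Among them Themis (339, 467, 763 and 725 CPM) and Aqp11 (215, 215, 343 and 299.6 CPM) were lower in wt mice 1 and 2 than in wt mice 3 and 4, like Rag1, and Dntt was higher (1904, 1915, 1547 and 1368 CPM). Mature thymocyte markers summed to 1036, 1071, 906 and 900.5 CPM in wt mice, against 861 to 948 CPM in Zmat3-/- mice and 885 to 1045 CPM in TKO mice. Over the 11 mice the mean log2 CPM of the mature list had a correlation of 0.79 with that of the 9 genes, and of 0.75 without wt mice 1 and 2. For the interferon response list these were 0.83 and 0.76, for the thymocyte list 0.58 and -0.25, for the B cell list 0.72 and 0.41, for the myeloid list 0.38 and 0.36, for the stromal list 0.35 and 0.32, and for the double-positive list -0.73 and -0.63. Myeloid markers summed to 284, 343, 222 and 211 CPM in wt, 283 to 369 CPM in Zmat3-/- mice, 207 to 405 CPM in TKO mice, and those of thymic epithelium and stroma to 315, 312, 193 and 226 CPM, 238 to 271 CPM and 210.0 to 264 CPM. Of all marker genes 1 passed in edgeR, Ms4a4b, a mature T cell marker, which was lower in Zmat3-/- than in wt mice (61.2 ± 2.91 against 86.3 ± 3.03 CPM, SD, n = 4 each, edgeR adjusted p = 0.0341). Of the same mature list, Cd69 was at 49.8 to 58.0 CPM in wt, 66.0 to 82.9 CPM in Zmat3-/- and 74.8 to 79.4 CPM in TKO mice, and Foxo1 at 60.0 to 67.2, 72.3 to 86.7 and 76.4 to 98.1 CPM, both without overlap of either mutant with wt in the opposite direction. Neither passed in Zmat3-/- against wt mice (log2 fold change 0.40 ± 0.105 and 0.32 ± 0.0934, edgeR adjusted p = 0.121 and 0.152). The part of cell make-up in the class I levels was not tested.

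The 7 genes on chromosome 17 lie 4.82 Mb (Tapbp) to 6.17 Mb (H2-D1) from Cdkn1a, one of the loci disrupted in TKO mice, so genes around that locus were compared between TKO and Zmat3-/- mice. Of 714 genes tested on chromosome 17, 19 passed in edgeR, beside 29 in the whole genome. By distance from Cdkn1a, 8 of 40 genes passed at 10 to 5 Mb before it, 6 of 120 in the 5 Mb before it, 4 of 94 in the 5 Mb after it and 0 of 112 at 5 to 10 Mb after it. The last passing gene ended 2.95 Mb before Tapbp, the first of the 7. Between Tapbp and H2-D1, 0 of 83 tested genes passed, and their median absolute log2 fold change was 0.084, beside 0.085 over all genes. In TKO against wt mice 0 of 84 passed in that interval, and in Zmat3-/- against wt mice 1 of 84 did, D17H6S53E (log2 fold change -0.77 ± 0.110, edgeR adjusted p = 0.0247). The 77 other tested genes of the interval had a median log2 fold change against wt mice of -0.28 in TKO and -0.27 in Zmat3-/- mice, beside the -0.04 and -0.03 of all genes. The median absolute log2 fold change of the 84 was 0.37 and 0.34, beside 0.25 and 0.22 over all genes. It varied along the chromosome, at 0.42 and 0.49 for genes 20 to 25 Mb after Cdkn1a and 0.19 and 0.16 for genes 55 to 60 Mb after it. B2m and Nlrc5, off chromosome 17, had log2 fold changes of 0.04 and -0.04 in TKO against Zmat3-/- mice, inside the range of the 7 genes near Cdkn1a.

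**Figure D4:**
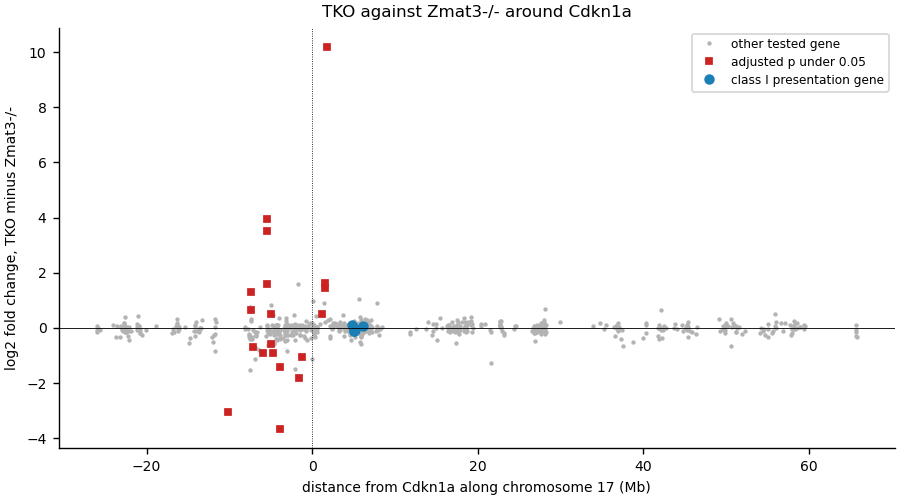
Log2 fold change in TKO against Zmat3-/- mice of every tested gene on chromosome 17, by distance from Cdkn1a in Mb. Red squares are the 19 genes with an adjusted p under 0.05, which all lie between 10.2 Mb before and 1.83 Mb after Cdkn1a, and blue circles the 7 class I presentation genes, all within -0.12 to 0.11.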

How the data were processed

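Thymocyte RNA-seq libraries of 11 mice were used (4 wt, 4 Zmat3-/-, 3 TKO). The authors quantified paired-end reads with Salmon in an nf-core pipeline on GRCm38.p6, and the deposited table holds their estimated counts per gene, not normalized, one column per mouse. All 598598 values were whole numbers, so rounding changed none. Identifiers were matched to GENCODE M21 (54166 of 54418 genes), while the study used vM25. Samples were grouped by the genotype in their labels. The genes and lists were chosen with earlier results of these data known. The genes named were the 9, the targeted genes, the lists' passing genes and extremes, passing genes within the chromosome 17 interval and the 5 nearest profiles, to which Irf1 and marker genes were added after their values were seen. The B cell and double-positive marker lists were divided, and 2 motif forms added, after that.

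Each pair of genotypes was fitted in edgeR 4.0.16 under R 4.3.3: a filter (20 counts after scaling to the smallest library, met by a number of mice equal to the smaller group), TMM, and the two-sided quasi-likelihood F-test, adjusted by Benjamini-Hochberg over all tested genes. The study adjusted DESeq2 for sex and surrogate variables and cut at an absolute log2 fold change of 1.5. The fits here had none of these terms, since the labels give no sex, and no such cut, with the Xist level and 1 surrogate variable as alternatives. Xist, Y-linked, ribosomal RNA and non-coding immunoglobulin genes (1628 in all) were left out. The SE is the absolute log2 fold change divided by the square root of F. CPM uses TMM over all 11 mice. Sums and ratios used two-sided exact permutation tests. Alternatives were DESeq2 1.42.0, RLE, no filter, one fit, sva 3.50.0, Xist level, replicate block, each mouse left out and, added after the values were seen, the Xist classes. The scripts were tested on simulated data. Same-numbered wt and Zmat3-/- mice deviated together (r = 0.338, 0.127, 0.256 and 0.303, numbers from the sample titles), but so did different-numbered mice of one Xist class (r = 0.378, 0.180, 0.156 and 0.246), so the agreement was not particular to the number. A paired fit was also made, and passed 12 genes in place of 103, and 0 of 9. For TKO mice not every pair exceeded 0.1. Mice of a genotype are separate animals by their labels.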

Additional observations from a re-analysis of the deposited data

Results flagged for a closer look

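The log2 fold change of Zmat3-/- against wt mice differed between Xist-high and Xist-low mice (2 of each genotype per class) in an edgeR interaction test for 7 genes. The difference, Xist-high minus Xist-low, was -0.64 for H2-K1, -0.74 for H2-D1, -0.66 for Tap2, -0.42 for Tapbp, -1.02 for Psmb8 and -0.90 for Psmb9, and 0.93 for Nlrc5, with adjusted p from 0.000776 (Nlrc5) to 0.0205 (Tapbp). The same test passed for 44.2% of all tested genes, so these genes share it with much of the transcriptome. It was run after the values had been seen. Both wt pairs enter it: wt mice 1 and 2, with a ribosomal protein share of 7.99% and 6.08%, the highest of the 11 mice, and wt mice 3 and 4, with 2.65% and 2.57%, the lowest. Within Xist-low mice Psmb8 (0.24, edgeR adjusted p = 0.00596) and Nlrc5 (-0.29, edgeR adjusted p = 0.0302) passed with the sign opposite to that in Xist-high mice. The part of Xist class or of the ribosomal protein share in the difference was not tested.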

How the results depend on the processing

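Each of the 9 genes had at least 1030 counts in every mouse. Of the 9 genes, 0 passed in TKO against Zmat3-/- mice under every alternative, and 0 passed in the comparisons with wt except within the Xist classes and with 1 surrogate variable, where 5 of 9 passed in Zmat3-/- against wt mice. That surrogate variable fit passed 37.8% of all genes. Within Xist-high mice all 9 genes passed in Zmat3-/- against wt mice, beside 42.1% of all genes, and within Xist-low mice 4 did, beside 28.2%. The Xist-high class holds 1 TKO mouse, which has no spread of its own. Assuming that it varies like the mice it was compared with, 5 passed in TKO against wt mice, where 20.2% of all genes did, and counts of TKO calls in that class, here and below, are no evidence of a difference between genotypes. The cause of changes below was not tested unless fewer mice were used.

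The number of genes passing in TKO against wt mice (39) was 382 with DESeq2, 61 without the filter, 216 with all genotypes in one fit, 2386 with 1 surrogate variable, 16 with the replicate block, 400 within Xist-low and 3089 within Xist-high mice, and 16 to 42 with single mice left out. In Zmat3-/- against wt mice (103) it was 1082, 55, 239, 5094, 12, 3881 and 6004 in the same order, 188 with the Xist level, and 17 to 105. In TKO against Zmat3-/- mice (29) it was 72 with DESeq2, 90 without the filter, 16 in one fit, 14 and 377 within Xist-low and Xist-high mice, and 20 to 34. The replicate block, also 20 there, changed no call of the 9 genes.

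Log2 fold changes against wt moved by over 1.5 times as follows, besides without wt mouse 1 and within the Xist classes, given with the results. In TKO mice 6 genes did with 1 surrogate variable, 5 with the Xist level, 1 with the replicate block, 4 each without TKO mouse 2 or 3, 3 each without wt mouse 2 or 3, and 1 each without TKO mouse 1 or wt mouse 4. In Zmat3-/- mice 3 did with 1 surrogate variable, 3 without wt mouse 2, 2 without wt mouse 3, and 1 each without wt mouse 4 or Zmat3-/- mouse 1. Psmb8 and Psmb9 with 1 surrogate variable were -0.24 and -0.23 in TKO and -0.15 each in Zmat3-/- mice, and H2-D1 -0.052 and -0.12.

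Signs turned as follows. Within Xist-low mice TKO against wt was 0.12 for B2m, 0.12 for H2-K1, 0.32 for H2-D1, 0.11 for Tapbp, 0.18 for Psmb8, 0.11 for Psmb9 and -0.20 for Nlrc5, and Zmat3-/- against wt was 0.15 for H2-D1, 0.24 for Psmb8, 0.17 for Psmb9 and -0.29 for Nlrc5. In TKO against Zmat3-/- mice Nlrc5 was 0.081 within Xist-low mice, B2m -0.11, H2-K1 -0.16, H2-D1 -0.049, Tap1 -0.12 and Tapbp -0.16 within Xist-high mice, Tap1 -0.010 and Nlrc5 0.052 with 1 surrogate variable, and H2-K1 -0.026 and Tap1 -0.019 with the replicate block. With single mice left out, TKO against wt was -0.0073 to 0.27 for Nlrc5, and TKO against Zmat3-/- was -0.072 to 0.14 for B2m, -0.19 to 0.20 for H2-K1, -0.074 to 0.18 for H2-D1, -0.028 to 0.046 for Tap1, -0.22 to 0.019 for Psmb9 and -0.13 to 0.084 for Nlrc5. Log2 ratios likewise ran from -0.092 to 0.011 (Psmb8 to Psmb5, TKO against wt), -0.0043 to 0.098 (the same, Zmat3-/- against wt), -0.070 to 0.030 (Psmb9 to Psmb6, Zmat3-/- against wt), -0.11 to 0.013 (the same, TKO against Zmat3-/-) and -0.093 to 0.11 (Psmb10 to Psmb7, TKO against Zmat3-/-).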
